A study of Homo sapiens with 9 samples.

Results

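Ribosome biogenesis and nucleolar genes were followed across 9 Illumina bead arrays of human leukaemia cells treated with a histone deacetylase (HDAC) inhibitor. The list holds 47 genes for RNA polymerase I, ribosomal RNA processing and ribosome assembly, and members were found by the gene symbol that the platform annotation gives each probe. Of the 47 genes, 42 had a probe (46 probes in all), and 41 were tested among 11228 genes of the series. DDX18, NPM1, WDR43, EBNA1BP2 and GNL3 were not analysed here, and the UTP20 probe was detected above background on 0 of 9 arrays, so UTP20 was not tested.

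The groups were SAHA (vorinostat) at 5 µM, MS-275 (entinostat) at 5 µM and no inhibitor, each in NB4, K562 and U937 cells with 1 array per line, and treatment lasted 6 h. SAHA is a hydroxamate that blocks zinc-dependent HDACs broadly, and MS-275 is a benzamide with a preference for class I enzymes. NB4 is a promyelocytic, K562 an erythroid-type and U937 a monocyte-type line, all long-established and all labelled as acute myeloid leukaemia, although K562 was derived from a chronic myeloid leukaemia. Cells grew in RPMI with serum, and the labels dissolve both inhibitors in DMSO without stating that untreated cells received it, so solvent and inhibitor cannot be told apart.

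The arrays detected 12079 to 12558 probes with SAHA, 11975 to 12705 with MS-275 and 11826 to 12277 without inhibitor, and the part of this difference in the results was not tested. The known HDAC inhibitor target CDKN1A rose 9.21-fold with SAHA and 9.09-fold with MS-275 (adjusted p = 0.00165 and 0.00558, limma). All 9 erythroid markers with a probe were detected on the 3 K562 arrays, against 2 to 5 on other arrays. Of 6 granulocyte genes listed for NB4, 5 to 6 were detected on NB4 arrays, 5 on U937 arrays and 1 to 2 on K562 arrays. Their summed level was higher in U937 (70000 to 74200) than in NB4 (41800 to 44500), and MPO alone among them was detected in NB4 and in no other line. Of 6 monocyte genes listed for U937, 5 to 6 were detected on U937 arrays, 6 on NB4 arrays and 3 to 4 on K562 arrays, so these lists did not separate NB4 from U937. Of 4 lymphoid genes, CD3D, CD3E and MS4A1 were detected on no array, and CD79A on all NB4 and U937 arrays. Of 6 stromal and epithelial genes, 3 to 5 were detected on NB4 and K562 arrays and 1 on U937 arrays.

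Ribosomes are built in the nucleolus, where RNA polymerase I transcribes one long precursor RNA. Guide RNAs in small nucleolar ribonucleoproteins (snoRNPs) direct its chemical modification, and a succession of helicases, scaffolds and nucleases cuts and folds it into the small (40S) and large (60S) subunits. The pathway is a main consumer of energy in growing cells, and its genes are well-known targets of the transcription factor MYC, which binds the E-box CACGTG as a dimer with MAX.

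Promoter windows are shown for members chosen by their large falls with SAHA. That these members fell together follows from this choice, and shared regulation was not tested. RefSeq windows (GRCh38.p14, 250 bases before to 50 after an annotated gene start) were available for 39 of the 47 genes, and CACGTG, which reads the same on both strands, was present in 19 of them (48.7%). Among all 27305 genes with a window the share was 8.77%. Among tested genes with a window, it was 44.1% for the 34 list members and 12.6% for all 9259. The motif was present in 47.8% of the 23 members lower with SAHA and in 36.4% of the 11 not past that test. Counted by window, since some genes have more than 1, the shares were 39.2% of 51 windows for the list and 7.26% of all 35116. The windows shown are those of the 5 genes with the largest falls with SAHA that hold the motif among the 12 with the largest falls. The capitals mark CACGTG, and each sequence runs 5′ to 3′ on the strand of the gene.
MRTO4: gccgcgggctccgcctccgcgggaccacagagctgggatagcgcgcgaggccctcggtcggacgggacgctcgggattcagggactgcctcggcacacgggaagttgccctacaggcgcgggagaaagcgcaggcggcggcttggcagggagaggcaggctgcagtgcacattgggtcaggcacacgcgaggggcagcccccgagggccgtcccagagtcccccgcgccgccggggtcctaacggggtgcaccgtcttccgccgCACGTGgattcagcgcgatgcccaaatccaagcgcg
MYBBP1A: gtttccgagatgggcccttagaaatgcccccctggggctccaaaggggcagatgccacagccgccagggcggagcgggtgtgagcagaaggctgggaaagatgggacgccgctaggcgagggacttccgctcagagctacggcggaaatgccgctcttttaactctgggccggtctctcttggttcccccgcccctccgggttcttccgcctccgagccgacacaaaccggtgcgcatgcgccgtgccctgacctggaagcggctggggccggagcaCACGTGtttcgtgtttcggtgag
GAR1: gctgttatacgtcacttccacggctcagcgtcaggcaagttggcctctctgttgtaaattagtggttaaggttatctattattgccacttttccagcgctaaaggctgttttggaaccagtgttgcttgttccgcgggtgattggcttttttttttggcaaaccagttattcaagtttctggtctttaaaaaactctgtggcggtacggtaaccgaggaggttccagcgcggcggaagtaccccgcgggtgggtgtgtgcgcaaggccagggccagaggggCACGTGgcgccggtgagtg
SURF6: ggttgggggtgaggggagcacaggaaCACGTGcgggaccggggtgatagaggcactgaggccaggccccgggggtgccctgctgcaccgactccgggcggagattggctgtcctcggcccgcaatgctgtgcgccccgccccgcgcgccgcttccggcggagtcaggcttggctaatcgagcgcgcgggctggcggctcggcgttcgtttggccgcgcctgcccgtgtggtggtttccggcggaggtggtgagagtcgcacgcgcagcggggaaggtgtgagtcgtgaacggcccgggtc
DDX21: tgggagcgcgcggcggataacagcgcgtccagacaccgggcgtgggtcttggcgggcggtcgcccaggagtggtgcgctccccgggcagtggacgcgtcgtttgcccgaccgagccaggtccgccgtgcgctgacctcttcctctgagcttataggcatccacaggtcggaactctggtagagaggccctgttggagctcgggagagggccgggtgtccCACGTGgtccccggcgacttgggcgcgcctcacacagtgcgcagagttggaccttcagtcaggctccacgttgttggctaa
The MRTO4 window lies at chr1:19251555-19251854 on the plus strand, with the E-box starting at base 15 after the gene start. That of MYBBP1A lies at chr17:4555335-4555634 on the minus strand, with the E-box at base 28 after the start, and that of GAR1 at chr4:109815512-109815811 on the plus strand, with the E-box at base 32. The SURF6 window is at chr9:133336139-133336438 on the minus strand and holds its E-box at base −224, counted from the gene start, and the DDX21 window is at chr10:68956397-68956696 on the plus strand with the E-box at base −31. GAR1 and DDX21 have 2 windows each, and the one with the motif is shown. The windows of UBTF, PPAN, NIP7, TSR1, NOP16 and DKC1, also among these 12, do not hold these letters, and RRS1 completes the 12.

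Treatment with SAHA lowered 25 of the 41 tested genes and raised 0 at an adjusted p under 0.05 (limma), where 23.7% of all genes tested changed and 11.8% were lower. Over the same 41 genes, 28 had an unadjusted p under 0.05, as did 4144 of all 11228 genes. The other 16 of the 41 did not pass at the adjusted p, and 13 genes were lower at least 2-fold, a size that 4.33% of all genes reached. The median log2 change over the 41 genes was −0.76, against −0.01 over all genes. Quantile normalization gives all arrays the same distribution, so with either inhibitor it holds the all-gene median near 0. In single lines the median was −0.77 in NB4, −0.83 in K562 and −0.90 in U937, and 32 genes were lower in all 3 lines, as were 29.0% of all genes. These are bulk samples, so less RNA in each cell and fewer expressing cells cannot be told apart. Without U937 15 genes passed, without NB4 18 and without K562 22, and without the cell line in the model 4 did, all lower. Of all genes, 4.65%, 4.28%, 7.44% and 0.534% were lower in these fits, in that order.

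MS-275 lowered 28 of the 41 genes and raised 0 (limma), where 7.46% of all genes tested were lower and 4.34% higher. An unadjusted p under 0.05 was reached by 36 of the 41 genes and by 3412 of all 11228. Of the 28 genes, 13 were lower at least 2-fold, against 1.95% of all genes. The median log2 change over the 41 genes was −0.79, against −0.02 over all genes. The median was −0.93 in NB4, −0.69 in K562 and −0.78 in U937, and 38 genes were lower in all 3 lines, as were 29.8% of all genes. Both comparisons use the same untreated arrays. The MS-275 calls rest on all 3 lines: 0 genes passed in limma without NB4 or without U937 (31 at an unadjusted p under 0.05 in both cases), 11 without K562, 17 with only MS-275 and untreated arrays in the model and 0 without the cell line in it (20 unadjusted). Of all genes, 0.0% were lower without NB4, without U937 or without the cell line in the model. The share was 0.926% without K562 and 4.01% with only MS-275 and untreated arrays. The median over the 41 genes stayed between −0.84 and −0.68 when 1 line was left out.

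**Figure D1:**
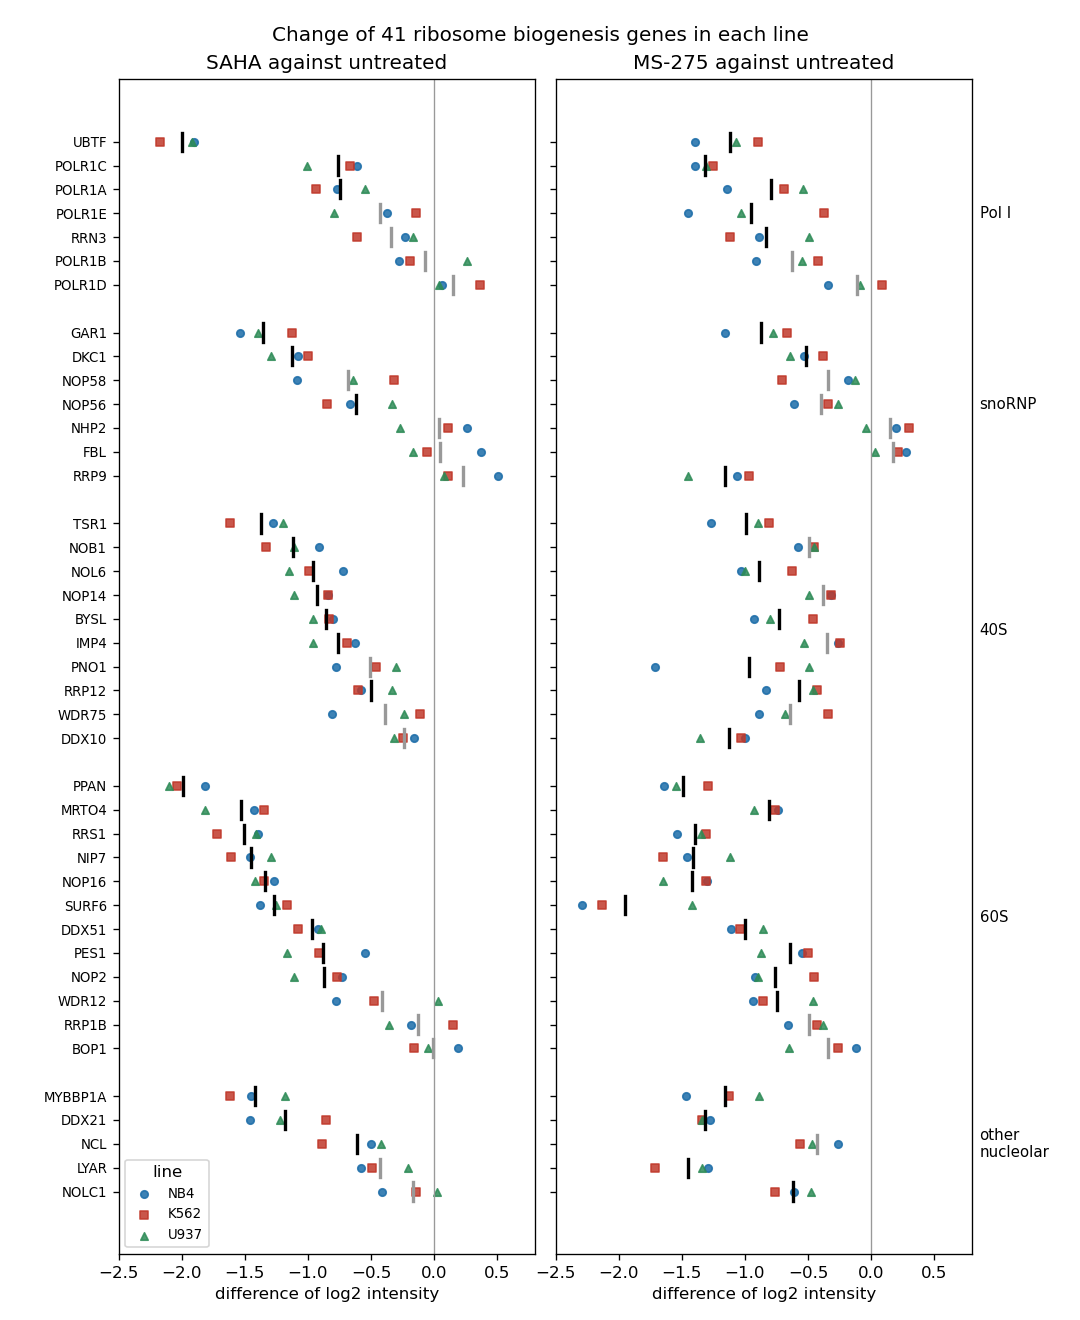
Log2 change of each of the 41 tested genes against the untreated array of the same line (x axis, difference of log2 intensity), with SAHA on the left and MS-275 on the right. Symbols are single lines, bars are means over the 3 lines (black where the adjusted p was under 0.05, grey otherwise), and most points lie below 0 in both panels. FBL lies above 0 in all 3 lines with MS-275, and RRP9 and POLR1D do with SAHA.

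The RNA polymerase I group holds the subunit genes POLR1A to POLR1E and the transcription factor genes UBTF and RRN3. Of these 7 genes, 3 fell with SAHA and 5 with MS-275. Further subunit and factor genes of this polymerase, POLR1G among them, are counted with the other assembly factors below. UBTF, which encodes the factor that binds and opens ribosomal DNA, had log2 intensities of 6.25 in NB4, 5.92 in K562 and 6.21 in U937 with SAHA. It had 6.75, 7.19 and 7.06 with MS-275 in the same line order, against 8.15, 8.09 and 8.13 in untreated cells. Both treated groups lay wholly below the untreated arrays, and the SAHA arrays below the MS-275 arrays. The fall was 3.99-fold with SAHA (log2 change −2.00 ± 0.16 SE, n = 3 lines, adjusted p = 0.00131, limma) and 2.18-fold with MS-275 (−1.12 ± 0.16, adjusted p = 0.0117). On the deposited log2 values, which carry no background correction, the SAHA fall was 2.44-fold (−1.29, adjusted p = 0.00105). In untreated cells UBTF differed by only 0.06 between the lines, the smallest range of the 41 genes.

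POLR1A, the gene of the largest subunit, fell 1.68-fold with SAHA (−0.75 ± 0.16, adjusted p = 0.0166) and 1.73-fold with MS-275 (−0.79 ± 0.16, adjusted p = 0.0284), and was detected on 2 of 3 SAHA arrays. On the deposited values its MS-275 change did not pass (adjusted p = 0.0502). POLR1C, a subunit shared with RNA polymerase III, fell 1.70-fold with SAHA and 2.49-fold with MS-275 (−1.32 ± 0.14, adjusted p = 0.00658). RRN3, whose protein brings the polymerase to the promoter, fell 1.78-fold with MS-275 (−0.83 ± 0.15, adjusted p = 0.0211), and POLR1E fell 1.94-fold (−0.95 ± 0.23, adjusted p = 0.0402). With SAHA these had −0.34 ± 0.15 and −0.43 ± 0.23 and did not pass. The second-largest subunit gene POLR1B (−0.07 with SAHA, −0.63 with MS-275) and the subunit gene POLR1D (0.15 and −0.11) passed neither test. For POLR1B the adjusted p with MS-275 was 0.0501 (limma), and it passed there under 4 of 8 alternative settings. POLR1D, also a subunit of both polymerases I and III, had 0.26 and −0.08 on its other probe.

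Among 7 core snoRNP genes, 3 fell with SAHA and 3 with MS-275, with values from −1.36 to 0.23 for SAHA. H/ACA particles, which convert uridine to pseudouridine, were represented by DKC1 (the pseudouridine synthase), GAR1 and NHP2. GAR1 fell 2.56-fold with SAHA (−1.36 ± 0.14, adjusted p = 0.00179) and 1.83-fold with MS-275 (−0.87 ± 0.14, adjusted p = 0.016), with −1.13 and −0.75 on its other probe. DKC1 fell 2.18-fold with SAHA (−1.13 ± 0.12, adjusted p = 0.00197) and 1.43-fold with MS-275 (−0.52 ± 0.12, adjusted p = 0.0389). NHP2 had changes of 0.04 ± 0.14 and 0.15 ± 0.14 and passed neither test.

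Box C/D particles, which methylate ribose, were represented by the methyltransferase gene FBL, the scaffold genes NOP56 and NOP58, and RRP9, a protein of the U3 particle needed for early cleavage. NOP56 fell 1.53-fold with SAHA (−0.62 ± 0.15, adjusted p = 0.0248) and did not pass with MS-275 (−0.40 ± 0.15), and NOP58 did not pass with SAHA (−0.68 ± 0.23) or MS-275 (−0.34 ± 0.23). FBL had log2 intensities of 11.90, 12.42 and 12.29 with SAHA and 11.82, 12.69 and 12.48 with MS-275 in NB4, K562 and U937, against 11.54, 12.48 and 12.46 in untreated cells. The 3 groups of FBL values overlap, with changes of 0.05 (95% interval −0.29 to 0.38) for SAHA and 0.17 (−0.16 to 0.51) for MS-275.

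The array values of RRP9, like those of FBL, are given by a choice made after they were seen, because RRP9 differed most between the inhibitors. It had 11.10 in NB4, 9.98 in K562 and 11.13 in U937 with SAHA. With MS-275 it had 9.53, 8.90 and 9.60, against 10.59, 9.87 and 11.05 in untreated cells. In each line the MS-275 array was the lowest of the 3 and the SAHA array the highest. RRP9 fell 2.24-fold with MS-275 (−1.16 ± 0.16, adjusted p = 0.0107) and had 0.23 ± 0.16 with SAHA (adjusted p = 0.324).

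The factors of the small subunit fell in 7 of 10 genes with SAHA and 6 of 10 with MS-275, and all 10 were lower in each of the 3 lines with each inhibitor. TSR1, a late-acting factor of the pre-40S particle, fell 2.58-fold with SAHA (−1.37 ± 0.17, adjusted p = 0.00271) and 1.99-fold with MS-275 (−0.99 ± 0.17, adjusted p = 0.0179). NOB1, the nuclease that makes the final cut of 18S ribosomal RNA, fell 2.17-fold with SAHA (−1.12 ± 0.14, adjusted p = 0.0028) and did not pass with MS-275 (−0.49 ± 0.14, adjusted p = 0.0648). Its partner PNO1 had −0.51 ± 0.23 with SAHA, which did not pass. With MS-275 PNO1 fell 1.96-fold (−0.97 ± 0.23, adjusted p = 0.0386), with −1.71 to −0.49 over the lines. The PNO1 difference between the inhibitors did not pass (0.46 ± 0.23, adjusted p = 0.185, limma). Over 8 alternative settings PNO1 lost its MS-275 call in 2, and NOB1 passed with MS-275 in 4.

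NOL6 (1.94-fold with SAHA, 1.85-fold with MS-275), BYSL (1.82-fold and 1.66-fold) and RRP12 (1.42-fold and 1.49-fold), which act in early assembly or in export of the pre-40S particle, fell with each inhibitor. On its other probe NOL6 had −0.58 with SAHA (adjusted p = 0.0738) and −0.82 with MS-275 (adjusted p = 0.0421). NOP14 and IMP4, components of the early processing complex, fell 1.90-fold and 1.69-fold with SAHA and did not pass with MS-275 (−0.38 and −0.35). The helicase gene DDX10 fell 2.19-fold with MS-275 (−1.13 ± 0.13, adjusted p = 0.00735) and did not pass with SAHA (−0.24 ± 0.13). WDR75, which acts at the first step of the complex, passed neither test (−0.39 and −0.64). Its adjusted p with MS-275 was 0.0502 (limma), and it passed there under 6 of 8 alternative settings.

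Large-subunit factors gave the largest share of falls among the 5 groups of roles, with 9 of 12 genes for SAHA and 10 of 12 for MS-275, and medians of −1.12 and −0.91. PPAN, an early pre-60S assembly factor, had log2 intensities of 9.90 in NB4, 7.71 in K562 and 7.92 in U937 with SAHA. It had 10.08, 8.46 and 8.46 with MS-275, against 11.72, 9.74 and 10.01 without inhibitor. The untreated NB4 array was 1.98 above the untreated K562 array, so the 3 groups overlap across lines, yet within each line the order was SAHA, MS-275, untreated from low to high. The falls were 3.96-fold with SAHA (−1.99 ± 0.14, adjusted p = 0.0013) and 2.82-fold with MS-275 (−1.49 ± 0.14, adjusted p = 0.00558). RefSeq also annotates a read-through gene of PPAN and the neighbouring P2RY11, and the probe need not tell these transcripts apart.

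RRS1, a member of the particle that brings 5S ribosomal RNA into the pre-60S subunit, had 9.11, 8.98 and 9.67 with SAHA and 8.97, 9.39 and 9.73 with MS-275 in NB4, K562 and U937. Untreated cells had 10.52, 10.70 and 11.08, above every treated array. It fell 2.85-fold with SAHA (−1.51 ± 0.14, adjusted p = 0.00165) and 2.64-fold with MS-275 (−1.40 ± 0.14, adjusted p = 0.00599). NIP7, grouped here with the large-subunit factors, had 10.49, 10.20 and 10.06 with SAHA and 10.49, 10.15 and 10.24 with MS-275, against 11.95, 11.81 and 11.36 in untreated cells. The NIP7 groups treated and untreated do not overlap, with falls of 2.74-fold (−1.45 ± 0.14, adjusted p = 0.00166) and 2.65-fold (−1.41 ± 0.14, adjusted p = 0.00558).

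NOP16, a nucleolar protein gene of 60S assembly known as a MYC target, had 10.60, 10.60 and 10.15 with SAHA and 10.56, 10.64 and 9.92 with MS-275, against 11.87, 11.95 and 11.57 in untreated cells. Its treated arrays were all below its untreated arrays, by 2.54-fold with SAHA (−1.34 ± 0.13, adjusted p = 0.00166) and 2.68-fold with MS-275 (−1.42 ± 0.13, adjusted p = 0.00558). MRTO4, a relative of the stalk protein P0 that holds its place during assembly, had 9.08, 9.50 and 8.93 with SAHA. It had 9.77, 10.10 and 9.82 with MS-275, against 10.51, 10.86 and 10.74 in untreated cells. No 2 of the 3 MRTO4 groups overlap, and it fell 2.89-fold with SAHA (−1.53 ± 0.13, adjusted p = 0.00155) and 1.75-fold with MS-275 (−0.81 ± 0.13, adjusted p = 0.0165).

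SURF6, a nucleolar protein gene named for a cluster of housekeeping genes, had the largest fall of the 41 genes with MS-275 after background correction. Its log2 intensities were 6.50, 6.82 and 6.13 with SAHA and 5.59, 5.86 and 5.96 with MS-275 in NB4, K562 and U937, against 7.88, 7.99 and 7.38 in untreated cells. The MS-275 arrays were the lowest and the untreated arrays the highest, without overlap. It fell 2.40-fold with SAHA (−1.27 ± 0.19, adjusted p = 0.00504) and 3.85-fold with MS-275 (−1.95 ± 0.19, adjusted p = 0.00598). On the deposited values its MS-275 fall was 2.23-fold (−1.16, adjusted p = 0.00632), smaller than those of LYAR (2.63-fold), NOP16 (2.59-fold) and PPAN (2.57-fold).

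The helicase gene DDX51 fell 1.95-fold with SAHA and 2.01-fold with MS-275, and the RNA methyltransferase gene NOP2 fell 1.83-fold and 1.69-fold, with −0.92 and −1.20 on its other probe. The 3 subunits of the PeBoW complex, which drives maturation of 28S and 5.8S RNA, differed from each other in their calls. PES1 fell 1.84-fold with SAHA (−0.88 ± 0.15, adjusted p = 0.00779) and 1.56-fold with MS-275 (−0.64 ± 0.15, adjusted p = 0.0402), WDR12 passed with MS-275 (1.69-fold, −0.75 ± 0.17, adjusted p = 0.0342) and not with SAHA (−0.41 ± 0.17), and BOP1 passed neither test (−0.01 ± 0.15 and −0.34 ± 0.15). RRP1B passed neither (−0.13 and −0.49).

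Of 5 nucleolar proteins with several roles, 3 fell with SAHA and 4 with MS-275. MYBBP1A, which encodes a MYB-binding protein of the nucleolus, had log2 intensities of 4.96, 5.44 and 6.85 with SAHA and 4.94, 5.92 and 7.14 with MS-275 in NB4, K562 and U937, against 6.40, 7.06 and 8.03 in untreated cells. The lines differ so much that the groups overlap, while the untreated array is the highest in each line, and 2 of 3 SAHA arrays and 2 of 3 MS-275 arrays detected it. Its falls were 2.67-fold with SAHA (−1.42 ± 0.16, adjusted p = 0.00198) and 2.24-fold with MS-275 (−1.16 ± 0.16, adjusted p = 0.0107). On the deposited values the SAHA fall was 1.73-fold (−0.79) and the MS-275 change −0.66, and both passed. DDX21, a helicase that links RNA polymerase I transcription with rRNA processing, fell 2.26-fold with SAHA (−1.18 ± 0.16, adjusted p = 0.00325) and 2.50-fold with MS-275 (−1.32 ± 0.16, adjusted p = 0.00779).

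LYAR, a zinc-finger protein gene of the nucleolus, had 11.88, 11.04 and 11.29 with SAHA and 11.18, 9.82 and 10.16 with MS-275, against 12.46, 11.53 and 11.50 in untreated cells. The MS-275 array was the lowest in each line, and the SAHA arrays lay closer to the untreated ones. LYAR fell 2.72-fold with MS-275 (−1.45 ± 0.15, adjusted p = 0.00653) and did not pass with SAHA (−0.43 ± 0.15, adjusted p = 0.078). NOLC1, the snoRNP chaperone Nopp140, fell 1.53-fold with MS-275 (−0.62 ± 0.14, adjusted p = 0.0357) and had −0.17 ± 0.14 with SAHA. NCL, which encodes nucleolin, fell 1.52-fold with SAHA (−0.61 ± 0.14, adjusted p = 0.0216) and did not pass with MS-275 (−0.43 ± 0.14, adjusted p = 0.0924).

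**Figure D2:**
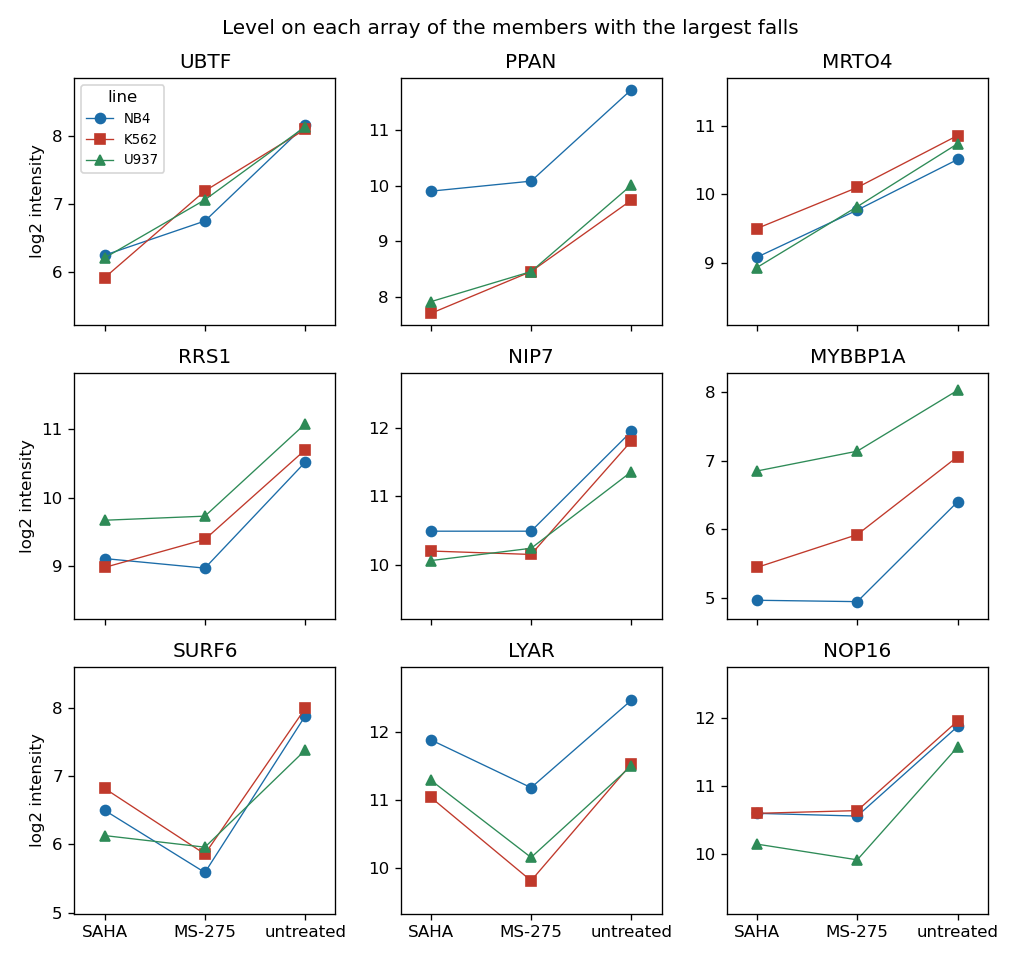
Log2 normalized intensity (y axis) on each of the 9 arrays for the 9 genes that hold the 6 largest falls with SAHA or with MS-275. Lines join the SAHA, MS-275 and untreated arrays of one cell line. In every panel the untreated array of a line is higher than both its treated arrays, which the choice of genes by their falls favours.

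The inhibitors were compared directly at the same dose and time, as 1 pair. Of the 41 genes, 13 differed, 6 with higher and 7 with lower values with SAHA than with MS-275, where 23.6% of all genes tested differed (13.4% higher and 10.2% lower). The median difference over the 41 genes was −0.05. RRP9 was 2.63-fold higher with SAHA than with MS-275 (1.40 ± 0.16, adjusted p = 0.00244), LYAR 2.02-fold (1.02 ± 0.15, adjusted p = 0.00515) and DDX10 1.85-fold (0.89 ± 0.13, adjusted p = 0.00474). SURF6 (0.68 ± 0.19, adjusted p = 0.0436), POLR1B (0.56 ± 0.16, adjusted p = 0.0469) and POLR1C (0.55 ± 0.14, adjusted p = 0.028) were also higher with SAHA. Over 8 alternative settings SURF6 lost this call in 6 (adjusted p up to 0.0869, difference 0.34 on the deposited values) and POLR1B in 4 (up to 0.0882). POLR1C lost it in 1 (adjusted p = 0.0788, limma).

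Lower with SAHA than with MS-275 were UBTF, 1.83-fold (−0.88 ± 0.16, adjusted p = 0.0105), MRTO4, 1.65-fold (−0.72 ± 0.13, adjusted p = 0.0104), and NOB1, 1.54-fold (−0.62 ± 0.14, adjusted p = 0.0208). DKC1 (−0.61 ± 0.12, adjusted p = 0.0135), NOP14 (−0.55 ± 0.12, adjusted p = 0.0182), PPAN (−0.49 ± 0.14, adjusted p = 0.0469) and GAR1 (−0.49 ± 0.14, adjusted p = 0.0447) were lower too. With equal array medians PPAN and GAR1 did not pass. With only the treated arrays in the model PPAN, GAR1, NOB1 (adjusted p = 0.0652, limma) and NOP14 (0.0574) did not. All 13 differences had 1 sign in the 3 lines, which a test paired by line favours among the genes that pass it. Of all 11228 genes, 3176 were higher and 3085 lower with SAHA than with MS-275 in all 3 lines. For RRS1 the difference was −0.11 (95% interval −0.44 to 0.22), for NIP7 −0.05 (−0.37 to 0.28), for NOP16 0.08 (−0.22 to 0.38) and for DDX51 0.04 (−0.25 to 0.33), and none of these passed. The number of genes that differed was 6 with only the treated arrays in the model and 4, 4 and 1 when NB4, K562 or U937 was left out. It was 0 when the model did not hold the cell line (8 at an unadjusted p under 0.05, limma). Of all genes, 15.4% differed with only the treated arrays and 0.641% without the cell line in the model. Without NB4, K562 or U937, 7.43%, 15.4% and 4.55% of all genes did.

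**Figure D3:**
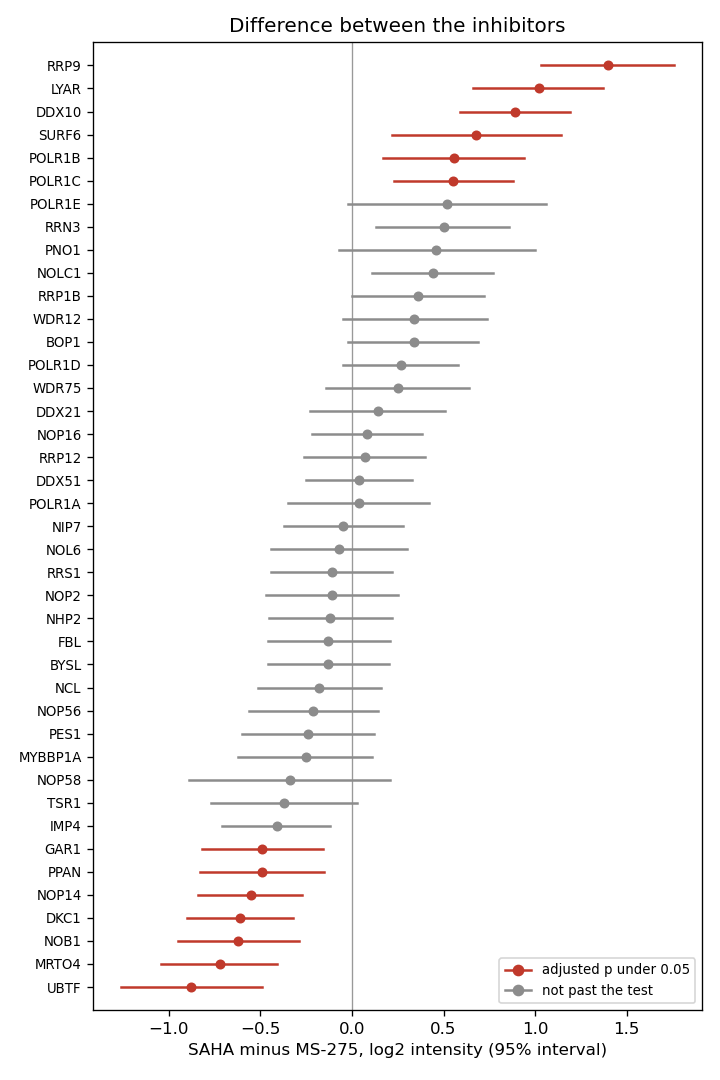
Difference between SAHA and MS-275 for the 41 tested genes (x axis, log2 intensity, points with 95% intervals from limma, ordered by size, red where the adjusted p was under 0.05). RRP9, LYAR and DDX10 stand at the top, higher with SAHA, and UBTF and MRTO4 at the bottom, lower with SAHA.

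Whether the response depended on the cell line was asked with an F test of treated against untreated arrays by line. In limma 0 of the 41 genes passed and 0 had an unadjusted p under 0.05, against 1.52% of all genes at an unadjusted p under 0.05 and 0.0% at an adjusted one. This test has 3 residual degrees of freedom and sets both inhibitors together, so it does not show that the lines respond alike. In untreated cells NB4 had the highest level of 23 of the 41 genes and K562 the lowest of 22, as a description of 1 array per line, against 3891 and 3708 of all 11228 genes. The range between the lines had a median of 0.86 for these genes and 0.91 for all genes, and it reached 2.00 for NCL, with 10.86 in NB4, 8.86 in K562 and 9.54 in U937.

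Other genes of ribosome synthesis were taken from 4 further lists, and MYC with its partners from another. Of 104 other assembly and nucleolar factors, 40 fell and 1 rose with SAHA, and 55 fell and 0 rose with MS-275, with median log2 changes of −0.37 and −0.58. Over all genes, 11.8% fell with SAHA and 1342 of 11228 rose, and 7.46% fell with MS-275 and 4.34% rose. The 18S methyltransferase gene EMG1 (3.08-fold), the pumilio-family gene PUM3 (2.92-fold) and the helicase gene DDX54 (2.67-fold) fell most with SAHA, and the H/ACA assembly factor SHQ1 rose (0.66 ± 0.13, adjusted p = 0.0125; 0.0599 with equal array medians). With MS-275 the RNA polymerase I subunit gene POLR1G (3.19-fold), UTP15 of the small-subunit processing complex (3.07-fold) fell most, followed by ESF1 and PUM3 (2.73-fold each). On the deposited log2 values POLR1G fell 2.08-fold and UTP15 1.84-fold. Between the inhibitors, 22 of these genes were higher with SAHA and 4 lower, where 13.4% and 10.2% of all genes were. Without NB4, K562 or U937 the falls numbered 12, 25 and 14 with SAHA and 0, 10 and 0 with MS-275.

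RNA polymerase III and its factors, which make 5S and transfer RNA, gave 8 falls and 2 rises in 19 genes with SAHA and 6 falls and 0 rises with MS-275. Leaving out NB4, K562 or U937 gave 5, 5 and 4 falls and 0, 2 and 0 rises with SAHA, and 0, 2 and 0 falls with MS-275, which also had 2 with only the groups compared. POLR3E fell 2.62-fold with SAHA and 2.14-fold with MS-275, POLR3F fell 2.74-fold with MS-275, and GTF3C1 (1.86-fold) and POLR3GL (1.84-fold) rose with SAHA. In the RNA exosome, the nuclease complex that trims precursors from the 3′ end, 6 of 12 genes fell with SAHA and 3 with MS-275. Of all genes, 11.8% and 7.46% fell. The largest exosome falls were those of EXOSC10 with SAHA (2.29-fold) and EXOSC4 with MS-275 (1.89-fold). Without NB4, K562 or U937 the SAHA falls numbered 2, 3 and 3, and the MS-275 falls 0 in each case and 0 with only the groups compared.

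Few calls were made among the genes of the ribosomal proteins themselves. Of 61 cytosolic ribosomal protein genes, 2 fell and 2 rose with SAHA and 0 fell and 1 rose with MS-275. The 61 genes had median log2 changes of 0.03 and 0.06, which turned to −0.08 and −0.05 when the arrays were scaled to equal medians. The probes of 34 of the 61 genes averaged a log2 intensity of 14 or more, as 0.686% of all tested genes did, close to the highest value on any array (14.98). None of these 34 was called. All 4 called genes were among the other 27 and averaged 11.42 or less. The counts therefore do not show that the bright genes kept their level. How far the top of the scale limits changes there was not tested. RPL29 (1.84-fold) and RPS26 (1.58-fold) fell with SAHA, RPL28 (1.34-fold) rose with it, and RPL14 rose with SAHA (1.48-fold) and MS-275 (1.58-fold). With equal array medians neither RPL14 nor RPL28 passed, and without 1 line 0 to 1 genes passed with SAHA and 0 with MS-275. These genes have many near-identical copies in the genome that probes need not tell apart.

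**Figure D4:**
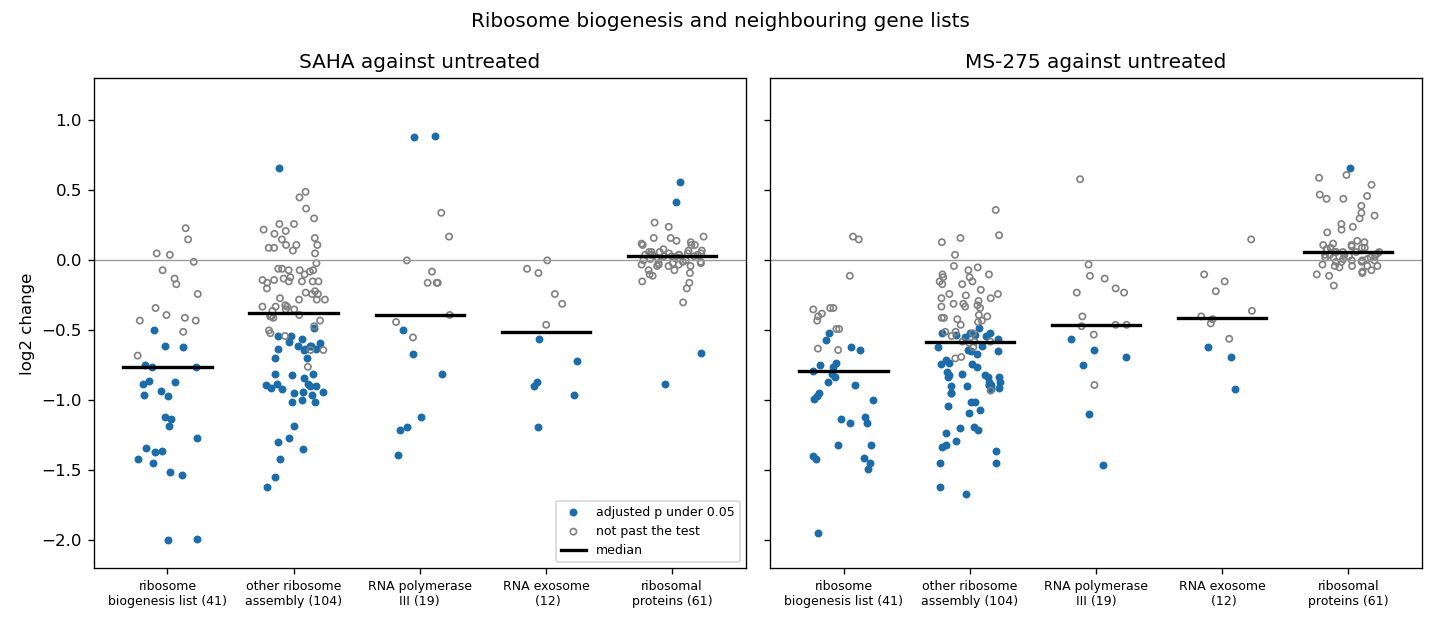
Log2 change (y axis) of each tested gene in 5 lists, with SAHA on the left and MS-275 on the right; filled points passed the test, open points did not, and bars are medians. The 41 tested genes of the list (median −0.76 with SAHA and −0.79 with MS-275) and the other assembly factors lie mostly below 0, while the ribosomal protein genes centre near 0.

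MYC had log2 intensities of 9.67, 10.67 and 9.14 with SAHA and 10.66, 11.25 and 10.68 with MS-275 in NB4, K562 and U937, against 13.14, 12.12 and 12.92 in untreated cells. It fell with SAHA (−2.90 ± 0.41, adjusted p = 0.00401) and with MS-275 (−1.87 ± 0.41, adjusted p = 0.034), and without NB4 it did not pass (adjusted p = 0.0519 and 0.199), nor with MS-275 without U937 (0.154) or without the detection filter (0.063). Its repressive relatives MXD1 (3.81-fold) and MXD3 (2.12-fold) rose with SAHA, and MNT fell 5.43-fold with MS-275 (2.99-fold on the deposited values). The relatives MXD4 (0.77, adjusted p = 0.0661, limma), MXI1 (0.37, 0.0583) and MNT (−0.63, 0.125) did not pass with SAHA. MXD1, MXD3, MXD4 and MXI1 did not pass with MS-275. Of 10 genes of MYC and its partners, 2 rose and 1 fell with SAHA, and 0 rose and 2 fell with MS-275. Of all 11228 genes, 1342 rose and 11.8% fell with SAHA, and 4.34% rose and 7.46% fell with MS-275. MXD1 did not pass without NB4 (adjusted p = 0.0798) or U937 (0.0645), MXD3 without NB4 (0.0846) or K562 (0.0541), and MNT without NB4 (0.0817) or U937 (0.0654). Of 34 list members with both a test and a promoter window, the 15 with CACGTG had a median log2 change of −0.88 with SAHA and −0.87 with MS-275, and the 19 without it −0.75 and −0.79. Over all tested genes with a window, the medians were −0.08 and −0.10 for the 1166 with the motif and 0.00 and −0.02 for the 8093 without. These medians are descriptions, and the part of MYC in the falls was not tested.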

How the data were processed

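Biotin-labelled cRNA was made from total RNA with an Illumina array kit, per the labels' protocols, and the 9 arrays cover 3 lines with 3 treatments each. The authors deposited a table of probe intensity that is neither background-subtracted nor normalized (array medians 104 to 139), with a detection p-value per probe in steps of 1 in 708, as the deposited values show. Their second deposited table holds log2 values, which equal the quantile-normalized log2 intensities. The submitters' processing notes name lumi. All 22177 probes were linked 1 to 1 between the tables by rank. The annotation names 1 gene for 19708 probes and none for 2469, and 19688 matched RefSeq.

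Intensities were background-corrected with nec of limma 3.58.1 in R 4.3.3 (offset 16), which infers negative controls from the detection p-values, then quantile-normalized before log2 was taken. Probes with a detection p-value under 0.05 on at least 3 of 9 arrays entered, and the brightest stood for its gene. Genes were fitted with limma on treatment and cell line (4 residual degrees of freedom), and p-values were adjusted by Benjamini and Hochberg over 11228 genes. Lines are the replicates. Each array is numbered replicate 1 in the labels, so pairing came from the line: with treatment means removed, arrays of one line correlated at 0.865 to 0.933. The fit was tested on simulated data. No slide or scan batch was available here. With 9 arrays the precision is limited: the median SE of a log2 change with SAHA was 0.17.

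Members, lists and the naming rule were chosen with earlier results of these data known. All list members could be named, array values were given for the 6 largest falls with each inhibitor, and from other lists up to 3 leading genes in each direction.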

Additional observations from a re-analysis of the deposited data

How the results depend on the processing

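Over 8 alternatives (the deposited log2 values without background correction, an offset of 50, equal medians, no detection filter, detection on all 9 arrays, the mean of a gene's probes, a variance trend and only the groups compared), 22 of the 25 genes called with SAHA, 17 of 28 with MS-275 and 6 of 13 between the inhibitors stayed called in every one that tested them. In these and in the fits without a line or without the replicate block, no called gene changed sign. With equal medians the median of all genes was −0.09 with SAHA and −0.14 with MS-275, against −0.01 and −0.02. Relative to it, the 41 genes had medians of −0.82 with SAHA and −0.91 with MS-275. With MS-275 36 of the 41 genes passed as lower, as did 16.4% of all genes. The SAHA count was 22 to 26 under 7 of the 8 and 30 with equal medians, where 16.1% of all genes were lower. With only the groups compared, the MS-275 count was 17 and that between the inhibitors 6. NCL, NOP56 and RRP12 lost their SAHA call there. BYSL, DKC1, NOLC1, NOP2, PES1, PNO1, POLR1A, POLR1E, RRN3, RRP12 and WDR12 lost their MS-275 call there. The pairing by cell line mattered most: with no replicate block 4 genes passed with SAHA, 0 with MS-275 and 0 between the inhibitors. Leaving out 1 line gave 15 to 22 genes with SAHA, 0 to 11 with MS-275 and 1 to 4 between the inhibitors, from 2 residual degrees of freedom. Line dependence gave 0 genes in limma under 7 alternatives. The counts for the other lists were recomputed after seeing the data. Signal over background limits UBTF, SURF6, POLR1A and MYBBP1A, the dimmest of the 41 genes, and with detection required on all 9 arrays the last 2 were not tested.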
